A study of Mus musculus with 4 samples.

Results

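A set of 10 genes of the androgen-producing Leydig cells was followed in RNA-sequencing libraries of mouse spermatocyte suspensions, selected by gene symbol from a list covering cholesterol uptake, steroid synthesis and Leydig cell identity. All 10 were found among the 24388 gene symbols kept. The libraries were 2 from mice in which Np95, the gene now named Uhrf1, was knocked out and 2 from control mice, all on the C57BL/6 strain and with an age label of 21 dpc, an abbreviation that is not spelled out. The table's column headers call the knockout cKO, while the driver of any recombinase and the deleted part of the gene were not named in the labels. Tubules of the testis were minced, treated with accutase and filtered through a mesh, with no sort mentioned, so somatic testis cells can be present. Nothing in the labels ties the libraries to separate animals, so each p-value measures the spread between libraries, which may be technical.

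Leydig cells lie between the seminiferous tubules, outside the compartment that holds spermatocytes. They take up cholesterol, move it into mitochondria and convert it to testosterone through a chain of cytochromes and dehydrogenases, under the control of luteinizing hormone acting through its receptor and cyclic AMP. They also secrete INSL3, a peptide hormone that acts in descent of the testis. The genes studied here are thus markers of a cell type other than the labelled one.

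Values are RPKM, reads per kilobase scaled to library depth, which the authors had divided by whole gene span, introns included. A gene with long introns therefore has a low RPKM, and levels of the 10 genes are ranked below after conversion to exon length. The steps between low values correspond to about 11120000 and 4820000 read pairs in knockout replicates 1 and 2, and to about 5820000 and 12800000 in control replicates 1 and 2. Uhrf1 was at 1.87 and 1.48 RPKM in the knockout libraries, against 3.11 and 3.29 RPKM in the control libraries (limma adjusted p = 0.0031). Over the 9099 genes with at least 1 RPKM in at least 2 libraries, 73.8% were called, 43.3% higher and 30.5% lower in the knockout, with a median log2 fold change of 0.14 on the log2(RPKM + 1) scale. Of all calls 58.7% were higher, against 77.3% after scaling to equal RPKM sums and 46.3% with libraries centred on an equal median, so a call alone sets no gene apart. Of 14 spermatocyte genes, which mark the labelled cell type, 9 were called lower and 2 higher in the knockout, and 3 were not called. Dmc1 was 4.47-fold and Sycp1 1.58-fold higher, while Pgk2 was 6.75-fold and Ldhc 4.23-fold lower. Dmc1 met the filter by its knockout values alone. Summed RPKM of the 14 was 329 and 251 in the knockout libraries, against 677 and 674 in the control libraries. Ldhc held 61.9 and 39.0 of these sums in the knockout, against 217 and 210 in the control. Tex101 held 142 and 115 in the knockout, against 174 and 179 in the control. Pgk2 held 24.9 and 15.3 in the knockout, against 132 and 139 in the control. None of the 14 was at 0 in any library.

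The Leydig cell genes were higher in the knockout libraries. For 9 of the 10 genes both knockout libraries lay above both control libraries, where 46.1% of all 24388 symbols did so, and Cyp17a1 was the exception. Among the 9099 tested genes the share was 51.8%, while 38% had both knockout libraries below both control libraries. Of the 8 Leydig cell genes that passed the filter 7 were called higher and 0 lower, beside the 43.3% of tested genes called higher, and 2 of the 8 passed only because of their knockout values. The ratio of mean RPKM, knockout over control, ran from 1.96 for Star to 5.64 for Lhcgr, with a median of 3.10, against a median of 1.40 over the 20151 symbols with a control mean above 0. When all symbols were tested without a filter on low values, 6 of the 10 genes were called higher and 0 lower, where 40.6% of all symbols were called in either direction and 27.8% higher. Those 6 were Nr5a1, Hsd3b1, Hsd3b6, Hsd17b3, Insl3 and Scarb1. These are suspensions of many cells, in which more cells of a type and more RNA per cell cannot be told apart.

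**Figure D1:**
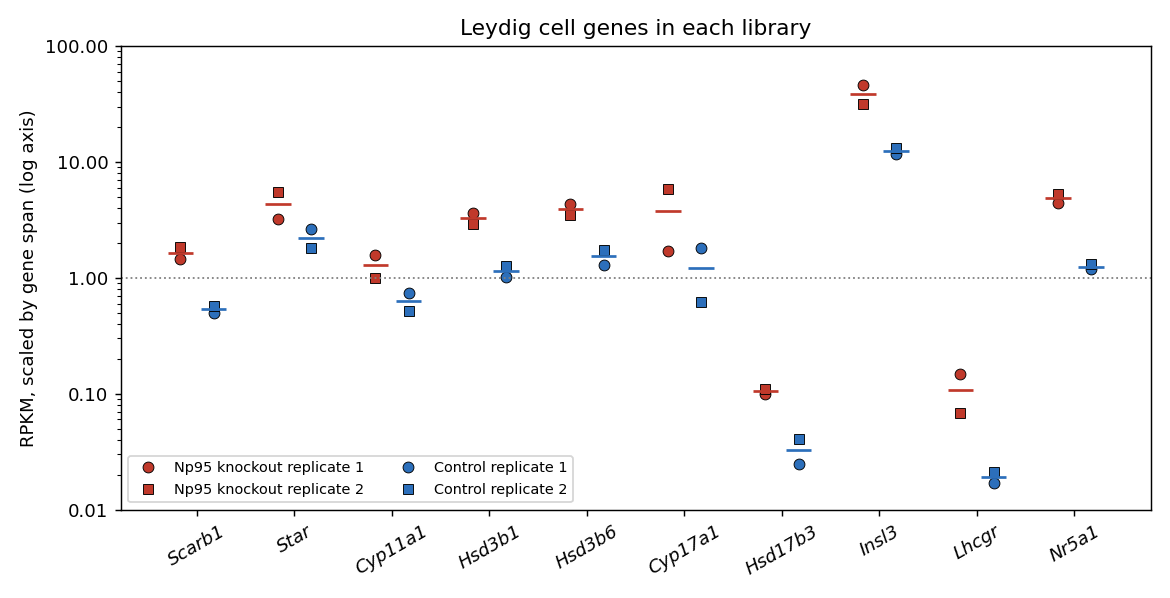
RPKM of the 10 Leydig cell genes (log axis) in each library, with knockout libraries in red left of control libraries in blue, circles for replicate 1, squares for replicate 2, and lines for the mean of 2 libraries. The dotted line marks the filter at 1 RPKM, and the groups overlap for Cyp17a1 alone among the 10 genes.

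The supply of cholesterol is represented by Scarb1 and Star. Scarb1, on chromosome 5, encodes the receptor that takes up cholesteryl esters from high-density lipoprotein. It had 1.44 and 1.84 RPKM in the knockout libraries, against 0.499 and 0.568 RPKM in the control libraries. The groups were well apart, with a difference of 0.78 on the log2 scale (SE 0.10, limma adjusted p = 0.0020). Both control libraries were below 1 RPKM, so Scarb1 met the filter by its knockout values alone, and it was also called without the filter (limma adjusted p = 0.028).

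Star, on chromosome 8, encodes the protein that carries cholesterol to the inner mitochondrial membrane, the step that luteinizing hormone stimulates acutely. It had 3.22 and 5.47 RPKM in the knockout libraries, against 2.62 and 1.81 RPKM in the control libraries. The groups did not overlap, but knockout replicate 1 was close to control replicate 1. The log2 fold change was 0.71 (SE 0.24, limma adjusted p = 0.042), and the adjusted p was 0.18 without the filter, 0.098 with median centring and 0.11 with quantile normalization. It was 0.15 without control replicate 2 and 0.12 without knockout replicate 2, so the call of Star rested on those libraries.

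Calls among other genes of cholesterol handling, from a list of 12, depended on the scaling. Of the 8 that passed the filter, where 43.3% of all tested genes were called higher, 7 were called higher, 0 lower and 1 was not called, and 4 of the 8 met the filter by knockout values alone. With every listed gene tested, 9 of the 12 were called higher and 0 lower, where 27.8% of all symbols were called higher. With median centring 4 of the 8 were called higher, beside 3045 of all 9099 genes, and with quantile normalization 3 of the 8, beside 3157 of 9099, a share near that of all genes. Vdac1, a channel of the outer mitochondrial membrane, had 2.60 and 3.04 RPKM in the knockout, against 0.695 and 0.911 RPKM in the control (limma adjusted p = 0.0014). Tspo, a cholesterol-binding protein of the same membrane, was 2.09-fold higher, Acbd3, which binds TSPO, 2.16-fold, and Soat1, which esterifies cholesterol for storage, 2.24-fold. These genes are expressed in many cell types. With quantile normalization Soat1 was no longer called (limma adjusted p = 0.081).

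The first steroid, pregnenolone, is made by Cyp11a1, the side-chain cleavage cytochrome of mitochondria, on chromosome 9. Cyp11a1 had 1.59 and 1.004 RPKM in the knockout libraries, against 0.734 and 0.521 RPKM in the control libraries. The groups did not overlap, although knockout replicate 2 lay nearer to control replicate 1 than to knockout replicate 1. Its difference on the log2(RPKM + 1) scale was 0.49 (SE 0.15, limma adjusted p = 0.031), the smallest among the 8 genes that passed the filter. That place rests on the scale, since by ratio of mean RPKM Cyp11a1 was 2.06-fold higher and Star 1.96-fold. Cyp11a1 met the filter by its knockout values alone. The adjusted p was 0.14 without the filter, 0.14 with median centring, 0.37 with quantile normalization and 0.13 without control replicate 2. Without either knockout library Cyp11a1 no longer passed the filter.

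Pregnenolone is converted to progesterone by 3-beta-hydroxysteroid dehydrogenases, encoded in the testis by Hsd3b1 and Hsd3b6, which neighbour each other on chromosome 3. In mice Hsd3b6 is known as the form of adult Leydig cells, while Hsd3b1 is made by fetal and adult Leydig cells. Hsd3b1 had 3.62 and 2.91 RPKM in the knockout libraries, against 1.03 and 1.27 RPKM in the control libraries, a difference of 0.99 on the log2 scale (SE 0.11, limma adjusted p = 0.0017). Hsd3b6 had 4.30 and 3.47 RPKM in the knockout libraries, against 1.30 and 1.75 RPKM in the control libraries, a difference of 0.95 on the log2 scale (SE 0.13, limma adjusted p = 0.0025). Both dehydrogenases thus separated the groups. Both genes were higher in knockout replicate 1 than in knockout replicate 2 and higher in control replicate 2 than in control replicate 1. The ratio of Hsd3b6 to Hsd3b1 RPKM was 1.19 and 1.19 in the knockout libraries, against 1.27 and 1.39 in the control libraries.

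The coding sequences of the pair are 90.0% identical without a gap over 1119 bases, so it matters how far 50-base reads can separate them. Of the distinct 50-base windows in the annotated transcripts, 2.05% of those of Hsd3b1 also occurred in Hsd3b6, and 2.11% of those of Hsd3b6 occurred in Hsd3b1. Hsd3b6 shared 15.5% of its windows with any other gene of Hsd3b1 to Hsd3b5, most of them with Hsd3b2 and Hsd3b3. Hsd3b2, Hsd3b3, Hsd3b4 and Hsd3b5 were each below 0.05 RPKM in all 4 libraries. How the authors counted reads that match several places is not stated. The longest coding stretch that Hsd3b1 and Hsd3b6 share letter for letter starts at coding base 250 of both and covers 72 bases. It is shown because a 50-base read wholly within it matches both genes. The mate of such a read may lie outside the stretch, which was not considered here.
Hsd3b1 and Hsd3b6: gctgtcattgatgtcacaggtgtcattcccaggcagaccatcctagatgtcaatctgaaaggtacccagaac

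The promoters of the pair are shown because both genes were higher in the knockout libraries. The 250 bases before the RefSeq start (build GRCm38.p6) are from chr3:98859795-98860044 on the minus strand for Hsd3b1 and from chr3:98814444-98814693 on the minus strand for Hsd3b6. Capitals mark AGATAA, a core bound by GATA factors, or its reverse complement. It begins 134 bases before the start on the other strand in Hsd3b1 and 31 bases before the start in Hsd3b6, and 9.99% of 32851 promoter windows of the same length hold it on either strand.
Hsd3b1: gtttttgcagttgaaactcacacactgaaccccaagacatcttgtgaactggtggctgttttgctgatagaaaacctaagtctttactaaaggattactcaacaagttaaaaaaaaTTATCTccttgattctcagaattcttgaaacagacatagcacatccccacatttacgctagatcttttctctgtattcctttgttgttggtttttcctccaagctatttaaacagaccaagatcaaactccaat
Hsd3b6: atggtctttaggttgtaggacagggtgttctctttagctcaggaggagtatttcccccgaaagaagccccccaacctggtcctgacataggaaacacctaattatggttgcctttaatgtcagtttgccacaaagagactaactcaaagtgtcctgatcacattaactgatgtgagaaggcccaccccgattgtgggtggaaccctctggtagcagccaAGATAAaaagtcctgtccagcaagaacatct

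Cyp17a1, on chromosome 19, encodes the cytochrome that converts progesterone to androstenedione, and in mice is among the most Leydig-restricted steps of the chain. It had 1.72 and 5.81 RPKM in the knockout libraries, against 1.80 and 0.622 RPKM in the control libraries. Knockout replicate 1 lay just below control replicate 1, so the groups overlapped. The log2 fold change of 1.01 had an SE of 0.49 and was not called (limma adjusted p = 0.12), with a 95% interval from -0.26 to 2.29. Without knockout replicate 1 it was 1.68 (limma adjusted p = 0.020), and over the other 3 leave-one-out fits the adjusted p ran from 0.073 to 0.44.

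Hsd17b3, on chromosome 13, encodes the enzyme that reduces androstenedione to testosterone. Its transcript comes from a gene of 30989 bases, which lowers the RPKM, and it stayed below the filter with 0.1003 and 0.110 RPKM in the knockout libraries, against 0.0249 and 0.0404 RPKM in the control libraries. These values correspond to about 34.6 and 16.4 read pairs in the knockout and to about 4.49 and 16.0 in the control. The groups did not overlap, the mean ratio was 3.22, and the gene was called higher without the filter (log2 fold change 0.10, SE 0.01, limma adjusted p = 0.024). Without the filter and with quantile normalization the adjusted p was 0.082.

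Partners that pass electrons to the steroidogenic cytochromes moved both ways. Of 5 genes tested, 4 were called higher and 1 lower, where 43.3% of all tested genes were higher and 30.5% lower. Fdxr, the ferredoxin reductase of mitochondria, had 4.88 and 5.61 RPKM in the knockout, against 2.57 and 2.54 in the control (limma adjusted p = 0.0016). Fdx1, the ferredoxin that takes electrons from it, had 1.81 and 1.90 RPKM in the knockout, against 2.84 and 2.74 in the control, and was called lower (limma adjusted p = 0.0049). Por, the reductase that serves CYP17A1, was 2.90-fold higher and met the filter by its knockout values alone, and Cyb5a, which promotes the lyase reaction of CYP17A1, was 1.89-fold higher. Fdx1 was not called after scaling to equal RPKM sums (limma adjusted p = 0.23) or without control replicate 1 (limma adjusted p = 0.055). All these electron donors also serve other cells.

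Of a list of 22 further enzymes that make or inactivate steroids, 2 passed the filter, Hsd17b10 and Hsd17b4, which act mainly in mitochondrial and peroxisomal oxidation, and both were called higher. Hsd17b10, on the X chromosome, had 8.44 and 9.15 RPKM in the knockout, against 2.99 and 4.08 RPKM in the control. The call of Hsd17b4 (limma adjusted p = 0.038) ended without any 1 library, with median centring, with quantile normalization and without the filter. With all 22 tested, 6 were called higher and 0 lower, a share near the 27.8% of all symbols called higher without the filter. Among the 6 was Akr1c14, a 3-alpha-hydroxysteroid dehydrogenase, at 0.156 and 0.134 RPKM in the knockout and 0.0111 and 0.0294 in the control. With quantile normalization and no filter 4 were higher and 2 lower, beside 3370 higher and 3673 lower of all 24388 symbols. The groups overlapped for the adrenal steroid enzymes, with Cyp21a1 at 0.134 and 0 RPKM in the knockout and 0.167 and 0.0126 in the control, and Cyp11b1 at 0.0764 and 0.0620 RPKM in the knockout and 0.130 and 0.0345 in the control.

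Insl3, on chromosome 8, encodes the Leydig cell peptide hormone. It had 45.8 and 31.6 RPKM in the knockout libraries, against 11.6 and 13.05 RPKM in the control libraries, a mean of 38.7 ± 10.04 against 12.3 ± 0.989 (SD, n = 2 each). Each knockout library was more than 2 times the higher control library. The log2 fold change was 1.55 (SE 0.19, limma adjusted p = 0.0019), and Insl3 was called higher in each of the alternative fits, including the one restricted to genes at 5 RPKM or more. Knockout replicate 1 was 1.45-fold above knockout replicate 2.

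Insl3 lies wholly inside the annotated span of Jak3, a cytokine receptor kinase of blood cells, and on the same strand, so its reads may be counted for both genes. Insl3 covers 9.34% of the Jak3 span. After both RPKM values were multiplied by gene span, Insl3 reads came to 92.4% and 90.9% of Jak3 reads in the knockout libraries, against 69.0% and 66.7% in the control libraries. Jak3 itself had 4.63 and 3.25 RPKM in the knockout, against 1.58 and 1.83 in the control, and was called higher (limma adjusted p = 0.0052). If every Insl3 read was also counted for Jak3, the rest of Jak3 had 0.389 and 0.327 RPKM in the knockout, against 0.539 and 0.670 in the control. On that reading the higher Jak3 value in the knockout lies within the Insl3 part of its span. Jak3 reads that cross Insl3 would add to the Insl3 value, and their share was not tested.

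**Figure D2:**
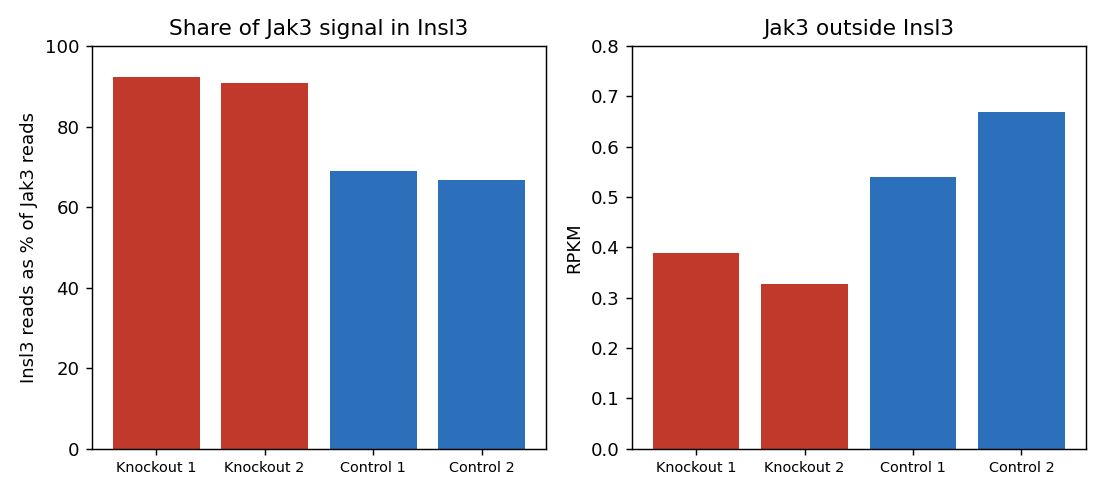
Left, Insl3 reads as a percentage of Jak3 reads in each library, from RPKM times gene span. Right, RPKM of Jak3 left after Insl3 reads are subtracted, in knockout (red) and control (blue) libraries. Insl3 holds over 90% of Jak3 reads in both knockout libraries, against 69.0% and 66.7% in the control, and the remaining Jak3 value is lower in both knockout libraries.

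The upstream region of Insl3 is shown because it holds the short letters bound by the steroidogenic regulator NR5A1, described below. The stretch runs from 250 to 51 bases before the RefSeq start, chr8:71689002-71689201 on the plus strand of GRCm38.p6. Capitals mark CAAGGTC, which begins 137 bases before the start, and CAAGGCC, which begins 57 bases before it.
Insl3: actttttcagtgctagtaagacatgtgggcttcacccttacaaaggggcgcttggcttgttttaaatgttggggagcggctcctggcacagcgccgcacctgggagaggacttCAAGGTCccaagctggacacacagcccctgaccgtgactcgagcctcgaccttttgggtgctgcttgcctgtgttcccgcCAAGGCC
On either strand, CAAGGTC occurs in 3.32% and CAAGGCC in 5.16% of the 32851 promoter windows of 250 bases. RefSeq promoters were matched for 6 of the 10 genes, in 7 windows, and Insl3 was the only 1 of these 6 with either string. The longer forms CAAGGTCA and CAAGGCCA, each of which contains 1 of these strings, occurred in 0 of the 7 windows and in 1.33% and 1.99% of all windows.

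Both receptors of the hormone signals were below the filter. Lhcgr, on chromosome 17, encodes the luteinizing hormone receptor of Leydig cells. It had 0.148 and 0.0688 RPKM in the knockout libraries, against 0.0170 and 0.0214 RPKM in the control libraries. Both knockout libraries were above both control libraries, but they differed 2.15-fold from each other, and the gene was not called without the filter (log2 fold change 0.12, SE 0.04, limma adjusted p = 0.14). With a span of 75676 bases, its values correspond to about 124 and 25.1 read pairs in the knockout and to about 7.51 and 20.7 in the control.

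Rxfp2, the receptor for INSL3, which in the testis is known from germ cells, was lower in the knockout. It had 0.112 and 0.0987 RPKM in the knockout libraries, against 0.482 and 0.495 RPKM in the control libraries, 4.64-fold lower. It was called lower without the filter (limma adjusted p = 0.022), where 12.8% of all symbols were called lower. It kept that call and direction without the filter after scaling to equal RPKM sums and under quantile normalization.

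Nr5a1, on chromosome 2, encodes the nuclear receptor SF-1, which activates most of the steroidogenic genes in Leydig and adrenal cells and is also made by Sertoli cells. It had 4.40 and 5.33 RPKM in the knockout libraries, against 1.19 and 1.30 RPKM in the control libraries. The groups were well apart and each pair of libraries agreed within 1.21-fold. The log2 fold change was 1.38 (SE 0.10, limma adjusted p = 0.0014), with the smallest p of the 8 genes tested.

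The wider list of luteinizing hormone signalling and nuclear regulators was mostly higher. Of 20 genes 8 passed the filter, of which 6 were called higher, 0 lower and 2 were not called, where 43.3% of all tested genes were called higher. Without the filter 13 of the 20 were called higher and 1 lower, where 27.8% of all symbols were higher and 12.8% lower. Gnas, the stimulatory G protein subunit that couples the receptor to cyclic AMP, had 6.14 and 7.19 RPKM in the knockout, against 2.21 and 2.30 in the control (limma adjusted p = 0.0014). Nr0b1, which represses NR5A1 and is X-linked, had 19.0 and 22.2 RPKM in the knockout, against 6.45 and 7.70 in the control (limma adjusted p = 0.0014). Nr0b1 is also in the list of Sertoli cell genes below, so both lists count it. Gata4, a transcription factor of Sertoli and Leydig cells, was 5.36-fold higher and Nr2f2, of interstitial cells, 2.42-fold higher, both below 1 RPKM in the control libraries, so that they met the filter by knockout values alone. With median centring 5 of the 8 were higher and 1 lower, beside 3045 higher and 3538 lower of all 9099 genes. With quantile normalization 6 of the 8 were higher and 1 lower, beside 3157 higher and 3042 lower of 9099.

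**Figure D3:**
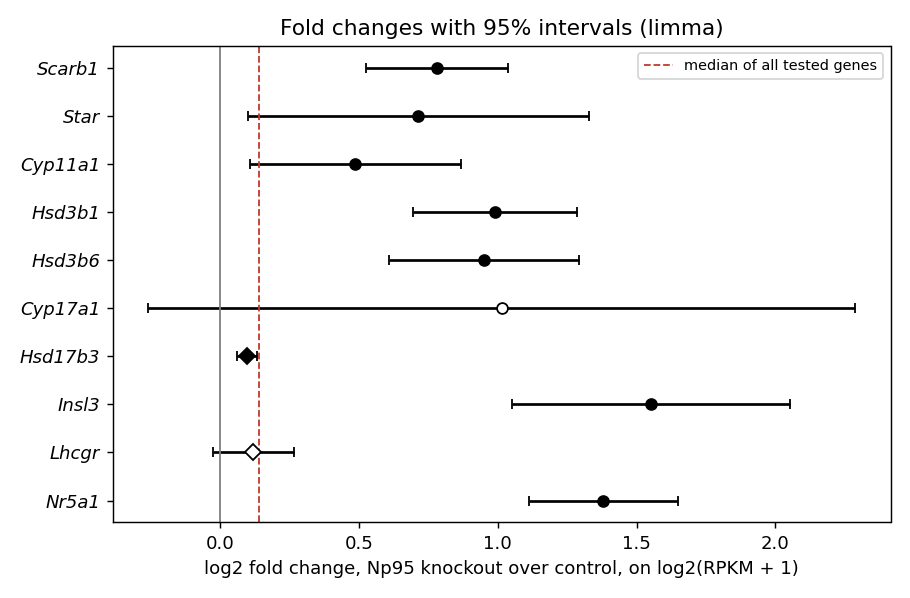
Log2 fold change of each gene, knockout over control, on log2(RPKM + 1), with 95% intervals from limma. Circles are genes that passed the filter and diamonds (Hsd17b3 and Lhcgr) come from the fit without the filter. Filled symbols were called, and the dashed line is the median of all tested genes at 0.14. On this scale Insl3 (1.55) and Nr5a1 (1.38) lie highest, while the intervals of Cyp17a1 and Lhcgr cross 0. With 0.1 added to RPKM in place of 1, Nr5a1 (1.88) lay above Insl3 (1.62).

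Levels of different genes were compared after conversion from span to exon length, as RPKM times span over the summed length of annotated exons. On this scale Insl3 stood highest, at 97.5 and 67.2 in the knockout libraries and 24.8 and 27.8 in the control libraries. Next in the knockout came Hsd3b1 at 34.0 and 27.4 and Nr5a1 at 22.7 and 27.5, whose ranges overlap, then Hsd3b6 at 21.3 and 17.2 and Scarb1 at 10.9 and 13.9. Cyp17a1, Star and Cyp11a1 had knockout means of 7.94, 7.93 and 7.82 and could not be ordered, since their libraries overlapped, and knockout replicate 2 of Cyp17a1 (12.3) also lay within the range of Scarb1. Hsd17b3 followed at 2.23 and 2.45 and Lhcgr was lowest at 1.46 and 0.681. The place of Hsd3b1 is uncertain, because its span is 17439 bases in RefSeq and 7601 in GENCODE M21. The shorter span would put its knockout mean at 13.4 in place of 30.7. With GENCODE spans Star, Cyp17a1 and Cyp11a1 would have knockout means of 9.96, 8.17 and 5.56, so their near equality rests on the RefSeq spans. Lengths are from GRCm38 annotations, while the authors used mm9, so these levels are approximate.

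The 10 genes did not follow 1 common pattern between libraries of the same group. In the knockout 5 were higher in replicate 1 and 5 in replicate 2, and in the control 3 were higher in replicate 1 and 7 in replicate 2. Cyp17a1 was 3.38-fold higher in knockout replicate 2 than in knockout replicate 1, and Star 1.70-fold, while Insl3, Cyp11a1 and Lhcgr were lower in knockout replicate 2. In the control Cyp17a1 was 2.90-fold and Star 1.45-fold higher in replicate 1 than in replicate 2. The RPKM ratio of Cyp17a1 to Insl3 was 0.0375 and 0.184 in knockout replicates 1 and 2, against 0.155 and 0.0476 in control replicates 1 and 2. Cyp17a1 and Star thus shared the order of the libraries within both groups, and Insl3, Hsd3b1, Hsd3b6 and Lhcgr shared the opposite order. Nr5a1, Scarb1 and Hsd17b3 were higher in replicate 2 of both groups, and Cyp11a1 in replicate 1 of both. With 2 libraries per group few orders are possible, and how often other genes take each order was not tested.

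Depth and blood content were set beside this pattern. Control replicate 1 and knockout replicate 2, in which Cyp17a1 and Star were higher, are the shallower libraries, at about 5820000 and 4820000 read pairs. Cyp17a1 corresponded to about 112 and 163 read pairs in knockout replicates 1 and 2, and to about 61.2 and 46.4 in control replicates 1 and 2. Hbb-b1, a beta globin of red blood cells, had 24.4 and 50.9 RPKM in knockout replicates 1 and 2, and 35.6 and 40.8 in control replicates 1 and 2. The part of depth or blood in the spread of Cyp17a1 and Star was not tested.

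**Figure D4:**
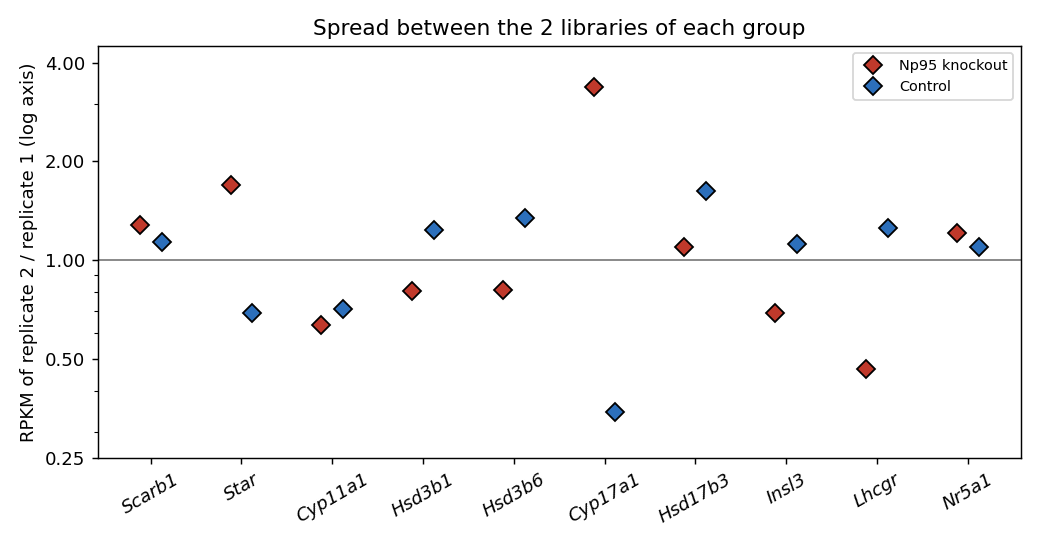
RPKM of replicate 2 over replicate 1 within the knockout (red, left of each pair) and within the control (blue), for each gene on a log axis. A value of 1 means equal libraries. Cyp17a1 lies farthest from 1 in both groups, at 3.38 in the knockout and 0.345 in the control, followed in the knockout by Lhcgr at 0.466 and Star at 1.70.

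Among all tested genes, those whose log2 values over the 4 libraries lay nearest to Insl3, after centring on the control mean, were Gsr, Rad51ap2 and Siah1b, at Euclidean distances of 0.25, 0.28 and 0.33. Gsr encodes glutathione reductase, Rad51ap2 has a role in meiotic recombination, and Siah1b is an X-linked ubiquitin ligase. The distance rests on 4 libraries and is given as a description.

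Other genes known from Leydig cells, from a list of 12, were higher too. Of the 5 that passed the filter, 2 of them by knockout values alone, 5 were called higher, where 43.3% of all tested genes were. With all 12 tested, 10 were called higher and 0 lower, where 27.8% of all symbols were called higher. Gstm1, a glutathione transferase, had 31.4 and 35.2 RPKM in the knockout, against 8.10 and 8.63 RPKM in the control (limma adjusted p = 0.0014). Aldh1a1, which makes retinoic acid, was 2.83-fold higher, Mgst1, a microsomal glutathione transferase, 3.08-fold, and Pdgfra, a receptor of interstitial cells, 4.96-fold. Ptgds, a prostaglandin synthase, was at 0.311 and 0.257 RPKM in the knockout and 0.312 and 0.241 in the control. Several genes of this list are also made by Sertoli or other interstitial cells.

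Markers of Sertoli cells, macrophages and peritubular myoid cells were mostly higher too. The summed RPKM of the 10 genes was 66.3 and 57.6 in the knockout, against 20.9 and 21.0 in the control. Insl3 alone held 45.8 and 31.6 of these sums in the knockout, and 11.6 and 13.05 in the control. Because RPKM was scaled by gene span, this and the other sums give most weight to abundant genes of short span. The sum over 16 Sertoli cell genes was 342 and 422 in the knockout, against 117 and 141 in the control. With all 16 tested, without the filter, 15 were called higher, where 27.8% of all symbols were. Their median RPKM ratio was 3.29, beside 3.10 for the 10 Leydig cell genes. The sum over 11 macrophage genes was 16.6 and 13.03 in the knockout, against 5.54 and 6.76 in the control, with 7 of the 11 called higher without the filter. For 8 peritubular myoid genes the sum was 6.53 and 6.98 in the knockout, against 3.26 and 3.44 in the control. Tagln alone held 3.08 and 2.84 of these sums in the knockout, and 1.84 and 2.08 in the control. Without the filter 4 of the 8 myoid genes were called higher. With quantile normalization in addition, 2 of the 8 were, beside 3 of the 11 macrophage and 14 of the 16 Sertoli cell genes. Of all 24388 symbols 3370 were called higher in that setting.

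The sum over 17 genes known to rise when tissue is dissociated was 93.2 and 136 in the knockout, against 24.6 and 30.3 in the control. Their median RPKM ratio was 4.79, above the 3.10 of the 10 Leydig cell genes. With all 17 tested, without the filter, 11 were called higher and 0 lower, where 27.8% of all symbols were called higher. Endothelial markers were near 0, with a sum over 8 genes of 0.589 and 0.644 in the knockout, against 0.452 and 0.299 in the control. The sum over 7 red blood cell genes was 80.3 and 171 in the knockout, against 116 and 134 in the control, so the groups overlapped, and the median ratio was 0.985. No marker of these somatic lists was at 0 in any library. The difference between the Leydig cell genes and the other lists was not tested, nor was the part that cell composition or dissociation had in the Leydig cell values.

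**Figure D5:**
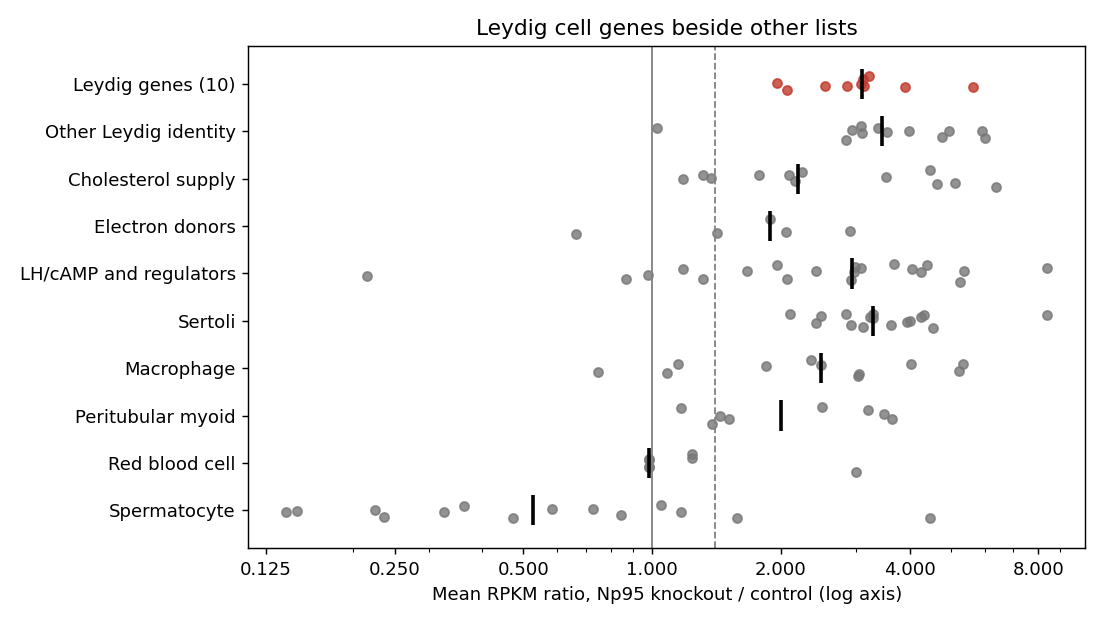
Ratio of mean RPKM, knockout over control (log axis), for each gene of 10 lists. The lists of dissociation genes, endothelial markers and further steroid enzymes are not drawn. Red points are the 10 Leydig cell genes, grey points other genes, and black bars list medians. The dashed line, at 1.40, is the median of the 20151 symbols with a control mean above 0. The Leydig cell, Sertoli, macrophage and peritubular myoid lists lie mostly above that line. The red blood cell median is 0.985 and the spermatocyte median is 0.528.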

How the data were processed

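Poly(A) RNA from 4 libraries was sequenced as 50-base pairs, per the labels' protocols, with a kit that does not mark strand. The authors deposited RPKM values, 1 column per library; Bowtie2 and build mm9 are named in the submitters' processing notes, and neither a counting program nor an annotation is named there. Low values times gene span were whole multiples of 1 step, within 0.05, for 37.9% to 40.7% of values, against at most 11.1% by exon length and 10% by chance, which shows span scaling. The commonest step was taken as 1 read pair.

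From 24444 rows, 27 with a date for a symbol and 29 repeated symbols (highest mean kept) were left out. Genes that reached 1 RPKM in 2 or more libraries were tested on log2(RPKM + 1) by limma 3.58.1 with a trend (R 4.3.3), two-sided, Benjamini-Hochberg adjusted over 9099 genes, threshold 0.05. A log2 fold change on this scale understates the change of low genes. With 2 libraries per group the smallest exact permutation p is 0.333. The fit was also run on simulated data in which few genes changed, unlike these data. That run does not measure the error rate here.

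The genes and lists were chosen with earlier results of these data known. Named besides the 10 genes are up to 4 called genes per pathway list with the smallest p and the 3 genes nearest to Insl3. The spermatocyte genes named, Dmc1, Sycp1, Pgk2, Ldhc and Tex101, do not follow the rule of smallest p. Adam2 and Adam3 of that list, both called lower, had limma adjusted p of 0.00148 and 0.00156. Those of Ldhc, Sycp1 and Tex101 were larger, at 0.00164, 0.00393 and 0.0417. Rxfp2, Akr1c14, Cyp21a1, Cyp11b1, Ptgds, Hbb-b1 and Jak3 were chosen after their values were seen. Alternatives were 2 pseudocounts, 2 filters, 3 scalings, no trend, blocking on replicate number, summed repeats and leaving out single libraries. Sequences are from RefSeq (GRCm38.p6) and GENCODE M21 transcripts.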

Additional observations from a re-analysis of the deposited data

How the results depend on the processing

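Of 121 values of single genes under alternative settings, 104 had the same sign and the same call as in the report, 16 lost the call, 1 gained it (Cyp17a1 without knockout replicate 1) and 0 reversed. Of the 8 genes tested, 7 were called higher and 0 lower. Restricted to genes at 5 RPKM or more, 1 was tested and called, where 1080 of 3468 genes were called higher and 1629 lower. Testing without a filter plus quantile normalization was a pair of choices added after the data were seen. With that pair 3370 of 24388 symbols were called higher and 3673 lower, and of the Leydig cell genes 3 of 10 were called. Leaving out each library in turn gave 4 to 7 called genes, the lowest without knockout replicate 2. Without either knockout library Cyp11a1 and Scarb1 no longer passed the filter, and 6 genes were tested, of which 6 were called without knockout replicate 1 and 4 without knockout replicate 2. Over all genes 6719 were called, 2709 at 5 RPKM or more, 10966 with no filter and an equal RPKM sum, and 4787 to 5422 when a library was left out. The replicate numbers share only a number in the labels: deviations of replicate 1 correlated at 0.109 between groups across genes, and with the replicate block 6589 genes and 7 of the 8 were called. Depth limits Hsd17b3 and Lhcgr most, at about 4.49 and 7.51 read pairs in control replicate 1, while Cyp17a1 had the widest error (SE 0.49) of the 8 genes tested.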
